A study of Mus musculus with 28 samples.

Results

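The acyl-CoA thioesterases described here were 8 genes chosen by name, Acot1 to Acot6, Acot8 and Acot12, out of 54446 genes listed in the count tables. All 8 were found by Ensembl identifier. Their mRNA was measured by sequencing polyA RNA from liver and kidney of male C57BL/6 mice at 8 weeks of age, gavaged for 7 days with nicotinamide mononucleotide (NMN), a precursor of NAD+, or with water. The article writes the strain as C57BL6J. Mice gavaged once daily received NMN at 1340 mg/kg/d or water, with 4 libraries per organ and treatment, and mice gavaged on the schedule of 2 gavages per day received 2680 mg/kg/d or water, with 3 libraries per organ and treatment, giving 28 libraries. No genotype was altered and no other agent was given. The higher dose also came with more frequent gavage, so dose and frequency cannot be told apart, and each schedule had water mice of its own. The libraries of the schedules differed too. In kidney, mitochondrial genes took 8.92% to 10.6% of counted reads at 1340 mg/kg/d and 19.8% to 21.6% at 2680 mg/kg/d. Reads without a unique position in kidney were 10.3% to 11.6% and 18.9% to 20% of all reads. Differences in level between schedules therefore cannot be told apart from differences between the libraries. The study calls the libraries biological replicates. The labels do not say whether liver and kidney libraries with the same number came from the same mouse. Counted reads ran from 12688324 to 33872983 per library. A few libraries stood apart. Liver NMN replicate 4 at 1340 mg/kg/d had 29.3% of its reads unassigned to genes, against 18.6% to 22.1% in the other livers, and liver NMN replicate 1 at 2680 mg/kg/d held more kidney transcripts than the rest of its schedule, so the NMN tests of the members in these groups are given with and without them. Levels are given as counts per 1000000 reads (CPM), with library sizes adjusted by TMM within one organ and schedule, and errors as SD over libraries.

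Acyl-CoA thioesterases cleave an acyl-CoA into a free fatty acid and coenzyme A (CoA). They thereby set the balance between activated and free fatty acids and release CoA for reuse. The members of the chromosome 12 cluster, Acot1 to Acot6, form the type I family, which shares its fold with bile acid conjugating acyltransferases. Acot1 is cytosolic and Acot2 mitochondrial, and both prefer long chains. Acot3 to Acot6 are peroxisomal enzymes, of which Acot4 acts on succinyl-CoA and other dicarboxylic acyl-CoAs. Acot8, also peroxisomal, and Acot12, a cytosolic acetyl-CoA hydrolase, belong to the unrelated type II family. Several type I genes are known in mouse liver as targets of peroxisome proliferator-activated receptor alpha (PPAR-alpha), which is active in fasting and on exposure to fibrates.

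Acot1 to Acot6 lay on one strand of chromosome 12 within 123 kb, in the order Acot2, Acot1, Acot4, Acot3, Acot5, Acot6. Acot12 lies on chromosome 13 and Acot8 on chromosome 2. The coding sequences of Acot1 (1260 bases) and Acot2 (1362 bases) were identical at 95.5% of 1239 aligned positions. Other pairs within the cluster were less alike, at 84% for Acot1 and Acot3, 85.4% for Acot3 and Acot5, 73.5% for Acot1 and Acot4, and 73.7% for Acot1 and Acot6. The longest identical run of Acot1 and Acot2 was 273 bases. The 90 coding bases over which it begins are shown because a read inside it fits both genes equally well. Capitals mark the 4 bases at which Acot2 differs from Acot1, and every base after the last capital belongs to the identical run, which goes on past the end of the stretch. Sequences are of the GENCODE M21 annotation, positions 872 to 961 of the Acot1 and 995 to 1084 of the Acot2 coding sequence.
Acot1: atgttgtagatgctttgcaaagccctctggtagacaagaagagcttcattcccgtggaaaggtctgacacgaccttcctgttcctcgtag
Acot2: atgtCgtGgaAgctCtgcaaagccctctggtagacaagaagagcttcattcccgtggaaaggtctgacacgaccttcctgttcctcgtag

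The authors counted only reads with a single best position in the genome, so a read from such a run was left out and not shared out between the genes. Of all 75-base windows in the exons, 15% of those of Acot1, 21.2% of Acot2, 18.1% of Acot3, 9.9% of Acot4, 13.8% of Acot5 and 1.86% of Acot6 also occurred in another gene. Windows of 150 bases were shared less often, 6.92% of those of Acot1 and 10.2% of those of Acot2. Counts of Acot1 and Acot2 therefore rest mainly on the parts in which the genes differ, and levels of the cluster genes are uncertain to that extent. The counting was not strand-specific, and the mode named in the article sets aside reads that lie wholly within exons of several genes. Reads of Acot3 and Acot4 were therefore left out where their exons overlap those of the antisense gene 4732463B04Rik. Acot3 and Acot4 also share 396 and 33 exon bases with Gm49366, a gene on their own strand, where strand-specific counting would leave reads out too. Antisense overlap of the same kind exists for Acot8 with Snx21 and for Acot12 with 4833422C13Rik.

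**Figure D1:**
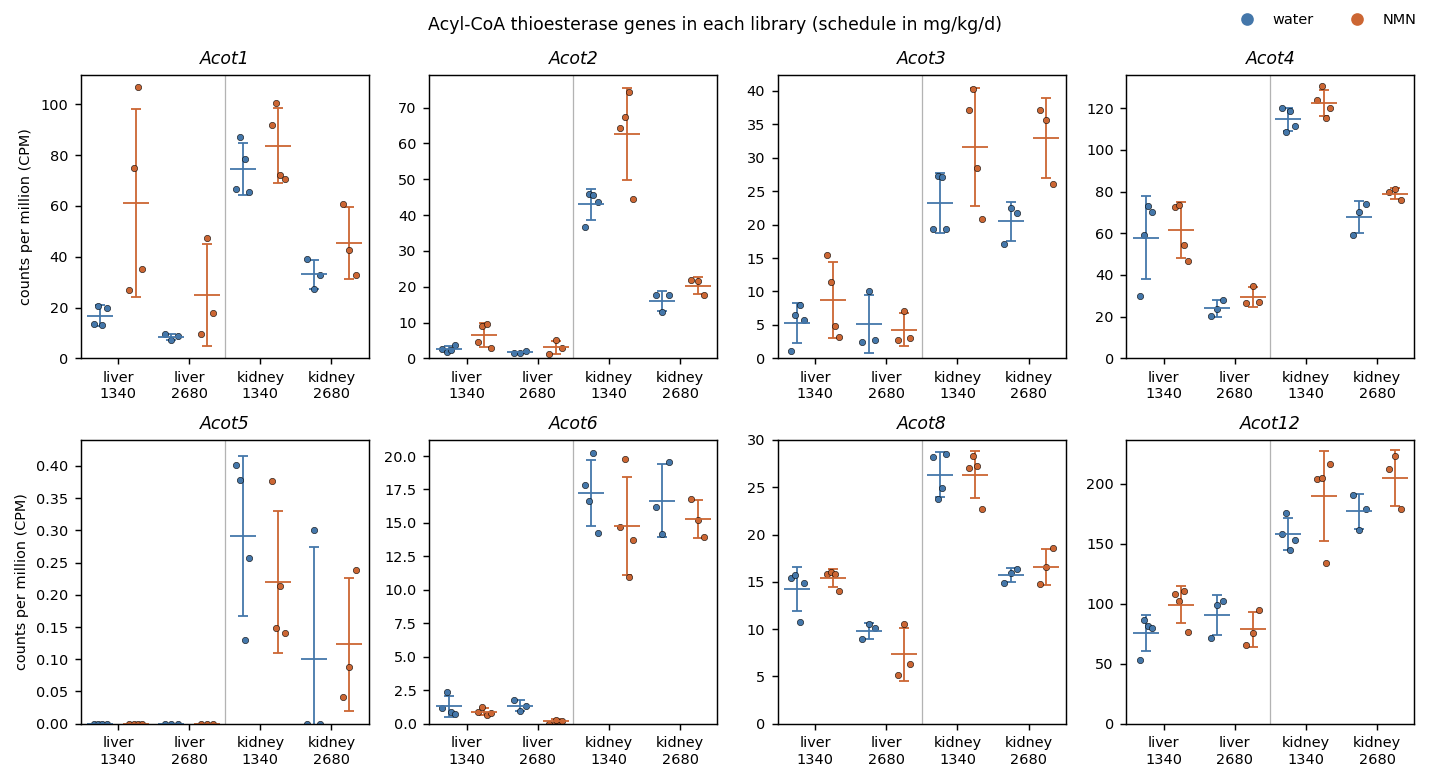
Level of each of the 8 genes in every library, in CPM on a linear axis with its own scale per gene. Library sizes were adjusted within one organ and schedule, so liver and kidney points cannot be compared by height. Each point is a library, and the bars give the mean and SD of 4 (1340 mg/kg/d) or 3 (2680 mg/kg/d) libraries. Acot1 in livers of NMN mice spreads from 26.8 to 107 CPM at 1340 mg/kg/d, above all 4 water livers, and Acot5 lies at or near 0 throughout.

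In water mice several of these enzymes differed in level between the organs. Acot2, Acot6 and Acot1 were lower in liver than in kidney on both schedules, while Acot8 and Acot12 were not called different. Compared per kilobase of exon, which allows genes to be set beside each other within an organ, Acot12 was the most abundant member in both organs. In livers of water mice at 1340 mg/kg/d it averaged 22.9 CPM per kilobase. Acot4 (8.68, range 4.45 to 10.9) and Acot8 (7.11, range 5.38 to 7.88) followed and overlapped. Acot1 came next at 4.28 CPM per kilobase, and Acot3 (1.55) and Acot2 (1.17) overlapped below it. Acot6 averaged 0.202 CPM per kilobase and Acot5 had no reads. The order in livers of water mice at 2680 mg/kg/d was the same apart from Acot8 (4.93) and Acot4 (3.59) changing places. In kidneys of water mice at 1340 mg/kg/d Acot12 averaged 48.0 CPM per kilobase, and Acot2 (19.6), Acot1 (19.0) and Acot4 (17.2) lay close together above Acot8 (13.2), Acot3 (6.76), Acot6 (2.69) and Acot5 (0.192). At 2680 mg/kg/d the kidney means were 53.7 for Acot12, 10.2 for Acot4, 8.43 for Acot1, 7.87 for Acot8, 7.32 for Acot2, 5.96 for Acot3, 2.60 for Acot6 and 0.0661 for Acot5. Acot4 had the highest mean of the type I genes in liver on both schedules, whereas in kidney Acot1, Acot2 and Acot4 were near each other.

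The test of the organs, fitted on water libraries only, called 4 of 7 tested members lower in liver and none higher on each schedule. Of all 14599 genes tested at 1340 mg/kg/d, 36.1% were called lower and 30.9% higher, and at 2680 mg/kg/d 39.5% of 14844 were lower and 31% higher, so being called was common. Values here are on a scale common to both organs. Acot2, the mitochondrial enzyme, had a log2 fold change of -3.11 (SE 0.21, edgeR adjusted p = 1.95e-08) at 1340 mg/kg/d and -2.42 (SE 0.23, edgeR adjusted p = 3.69e-06) at 2680 mg/kg/d. Acot6, a peroxisomal enzyme linked to branched-chain acyl-CoAs, differed by -2.77 (edgeR adjusted p = 4.81e-06) and -2.79 (edgeR adjusted p = 3.27e-06) on the log2 scale. Its kidney counts were 222 to 310 per water library at 1340 mg/kg/d against 11 to 36 in liver. Acot1 averaged 23.2 ± 5.89 CPM in liver and 53.2 ± 7.11 CPM in kidney at 1340 mg/kg/d (SD, n = 4), a log2 fold change of -1.19 (edgeR adjusted p = 5.37e-05), and gave -1.10 at 2680 mg/kg/d (edgeR adjusted p = 0.000199). These 3 genes were lower in every water liver than in every water kidney of the same schedule, as were 33.9% and 42.5% of all genes tested.

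Acot3, which hydrolyses long-chain acyl-CoAs in peroxisomes, was called lower in liver at 1340 mg/kg/d (log2 fold change -1.16, edgeR adjusted p = 0.0223) and not at 2680 mg/kg/d (-1.14, edgeR adjusted p = 0.0721). The first call was lost without kidney water replicate 2 (adjusted p = 0.0562) or replicate 3 (adjusted p = 0.0554). The second value rested on liver water replicate 2, with 197 reads against 47 in each of the others, and was -2.08 without it (edgeR adjusted p = 2.46e-05). Acot4 was called lower at 2680 mg/kg/d (-0.65, edgeR adjusted p = 0.00220) and not at 1340 mg/kg/d (-0.03, 95% interval -0.51 to 0.44). Acot12 gave -0.12 (95% interval -0.44 to 0.20) and -0.11 (-0.43 to 0.21), and Acot8 gave 0.06 (-0.28 to 0.40) and 0.18 (-0.16 to 0.52).
These values depend on the scaling between organs. With TMM the median log2 difference of all genes was -0.103 at 1340 mg/kg/d and -0.173 at 2680 mg/kg/d. With library size alone, a setting added after the data were seen, it was -1.05 and -1.10, and 1681 of 11841 and 1849 of 12245 called genes were higher in liver, where TMM gave 4509 of 9772 and 4602 of 10464. Acot8 then turned negative, at -0.89 and -0.75, and Acot12, already below 0, moved to -1.07 and -1.04, both called lower. Acot4 at 1340 mg/kg/d moved from -0.03 to -0.98 and was called lower (edgeR adjusted p = 0.00147), and Acot3 at 2680 mg/kg/d moved to -2.07 and was called (edgeR adjusted p = 0.00507). Acot1, Acot2 and Acot6 lay below the median of all genes under either scaling, at -2.15, -4.06 and -3.72 with library size alone at 1340 mg/kg/d. Bulk tissue does not tell fewer cells of a type from less RNA per cell.

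The organ labels fitted the marker genes. The summed level of 8 hepatocyte markers was 97628 to 173336 CPM in the liver libraries and 2879 to 4258 CPM in kidney, where the urea cycle gene Ass1 was the most abundant in 7 libraries and the cytochrome P450 gene Cyp2e1 in the other 7. The summed level of 8 proximal tubule markers was 21176 to 39367 CPM in kidney and 1.39 to 56.0 CPM in liver. Expressed as a share of the mean of kidney water libraries on the same schedule, the liver values were 0.00454% to 0.163%. At these shares kidney RNA would add at most 0.0281 CPM of Acot6 and 0.121 CPM of Acot1 to a liver library.

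**Figure D2:**
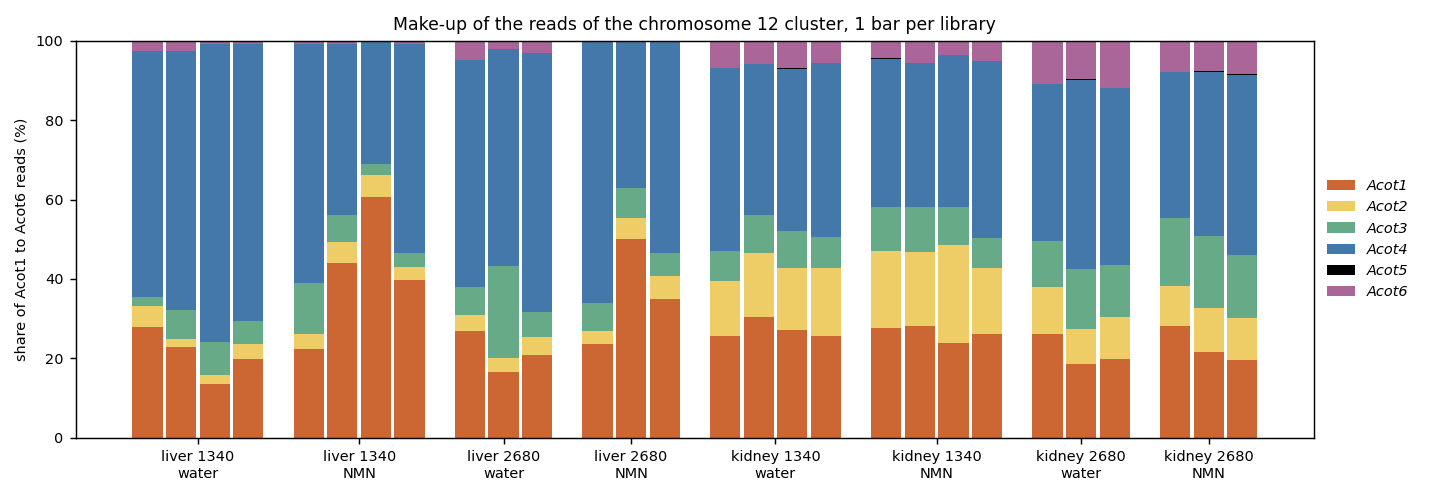
Share of the reads counted for Acot1 to Acot6 that fell on each of the 6 genes, in percent, with 1 stacked bar per library. Shares are not adjusted for exon length, which is 6674 bases for Acot4, 3919 for Acot1 and 2196 for Acot2. Acot4 held 62.0% to 75.1% of them in water livers at 1340 mg/kg/d and 30.8% to 60.3% in NMN livers, and 36.4% to 46.0% in the kidneys of that schedule.

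Taken as 1 quantity, the reads of Acot1 to Acot6 came to 605 to 1481 in water livers at 1340 mg/kg/d and 1178 to 2772 in NMN livers. The fitted log2 difference of this sum between NMN and water was 0.73 (SE 0.27) in liver at 1340 mg/kg/d, 0.61 (SE 0.29) in liver at 2680 mg/kg/d, 0.21 (SE 0.10) in kidney at 1340 mg/kg/d and 0.32 (SE 0.10) in kidney at 2680 mg/kg/d. In liver at 2680 mg/kg/d the sums were 35.2, 43.5 and 42.9 CPM with water and 39.9, 94.8 and 51.0 CPM with NMN. NMN replicate 2 stood far above the others, and replicate 1 lay among the water livers. The sum is not changed by how the counted reads divide among the paralogs. Reads left out because they fit several genes are missing from it, to an extent that differs by member. The sum carries no test here. Its make-up, in shares of reads not adjusted for exon length, varied between libraries. At 1340 mg/kg/d Acot1 held 13.5% to 27.9% of the cluster's reads in water livers and 22.3% to 60.6% in NMN livers, with 3 NMN livers above all water livers. The shares of Acot1 at 2680 mg/kg/d were 16.5% to 26.8% and 23.6% to 50.1%, with 2 of 3 NMN livers above all water livers, and those of Acot4 overlapped (54.5% to 65.2% with water and 36.8% to 66.1% with NMN, replicate 1 the highest). In water kidneys at 1340 mg/kg/d Acot4 held 38.0% to 46.0%, and in NMN kidneys 36.4% to 44.5%. Acot6 held 5.60% to 6.96% in water kidneys and 3.64% to 5.51% in NMN kidneys at 1340 mg/kg/d, and 9.64% to 11.8% and 7.75% to 8.37% at 2680 mg/kg/d, so its share was lower in every NMN kidney than in every water kidney of the same schedule. A share falls when other members rise, and the level of Acot6 itself overlapped between treatments and was not called in kidney (log2 fold change -0.22 and -0.12), while the sum was higher with NMN by the values above. Acot1 had 4.55 to 12.7 reads for each read of Acot2 in liver libraries and 0.970 to 2.78 in kidney libraries, so the closest pair of paralogs stood in different ratios in the organs.

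In liver at 1340 mg/kg/d, Acot1 was higher in all 4 NMN libraries than in any water library. Its values were 13.4, 20.8, 13.1 and 19.9 CPM with water and 26.8, 75.1, 107 and 35.4 CPM with NMN. Mean levels were 16.8 ± 4.12 and 61.0 ± 37.0 CPM (SD, n = 4), which is a log2 fold change of 1.86 (SE 0.45, 95% interval 0.83 to 2.89) or 3.63-fold. The NMN livers differed among themselves by more than the water livers did, with replicates 2 and 3 far above replicates 1 and 4. The edgeR quasi-likelihood test did not call it (adjusted p = 0.388). Without NMN replicate 4 it gave 2.05 (edgeR adjusted p = 0.220), and over all libraries left out in turn the value ran from 1.45 to 2.11. DESeq2, the tool of the study, called it (log2 fold change 1.86, adjusted p = 0.000104).
Acot2 followed the same libraries. It stood at 2.53, 1.80, 2.26 and 3.72 CPM with water and 4.66, 8.97, 9.63 and 2.79 CPM with NMN. The groups overlapped, since NMN replicate 4 lay below water replicate 4, and the log2 fold change was 1.34 (SE 0.39, edgeR adjusted p = 0.435) and 1.59 without that library (edgeR adjusted p = 0.0982). Water counts of Acot2 were only 27 to 55 reads.

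The other members did not separate in liver at 1340 mg/kg/d. Acot3 was at 1.11, 6.53, 7.92 and 5.74 CPM with water and 15.4, 11.5, 4.88 and 3.24 CPM with NMN (log2 fold change 0.71, SE 0.62, edgeR adjusted p = 0.873). Water replicate 1 was low and NMN replicates 1 and 2 high, whereas Acot1 was highest in NMN replicates 2 and 3. Acot4 averaged within 0.09 of water on the log2 scale (SE 0.26), Acot6 was at -0.52 (SE 0.47) and Acot8 at 0.12. Acot12 stood at 75.3 ± 15.1 CPM with water and 99.4 ± 15.7 CPM with NMN (SD, n = 4; log2 fold change 0.40, SE 0.17, edgeR adjusted p = 0.690). Without NMN replicate 4, Acot3 gave 0.98, Acot4 0.20, Acot6 -0.48, Acot8 0.16 and Acot12 0.51, none of them called. Single libraries also moved these values the other way, to 0.30 for Acot3 without NMN replicate 1, -0.13 for Acot4 without water replicate 1, where its sign turned, -0.03 for Acot6 without water replicate 2 and 0.26 for Acot12 without water replicate 1, and Acot8 ran from 0.0079 to 0.18. With all libraries edgeR called none of 7 tested members, against 2 of 12449 genes in all (0.0161%). At an unadjusted p under 0.05 it listed 3 of 7 members (Acot1, Acot2 and Acot12) and 6.86% of all genes, and DESeq2 called 1, Acot1, and 0.573% of all genes. Groups did not overlap for 1 of 7 members and for 3.53% of all genes. Acot5 had 0 reads in all 14 liver libraries, which allows up to 0.145 to 0.236 CPM per library by counting error alone (3 reads), and was not tested there.

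**Figure D3:**
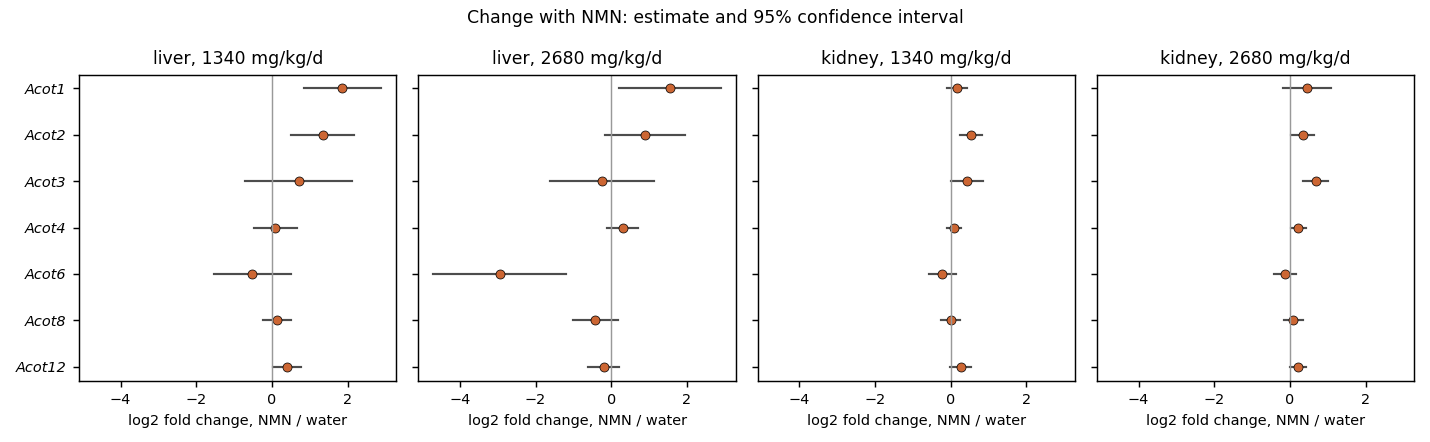
Log2 fold change of NMN against water for the 7 tested members in each organ and schedule, as points with 95% intervals from edgeR. Intervals of Acot1 lie wide and above 0 in liver at 1340 mg/kg/d (0.83 to 2.89), and Acot6 in liver at 2680 mg/kg/d lies lowest at -2.95.

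In liver at 2680 mg/kg/d, Acot6 was the member furthest from water, in the opposite direction. It had 34, 18 and 22 reads with water and 0, 6 and 4 reads with NMN, or 1.75, 0.925 and 1.30 CPM against 0, 0.287 and 0.210 CPM. All 3 NMN livers lay below all 3 water livers. Means were 1.33 ± 0.414 and 0.166 ± 0.149 CPM (SD, n = 3), which is a log2 fold change of -2.95 (SE 0.80), and edgeR placed it just outside the threshold (adjusted p = 0.0502). DESeq2 gave -3.00 (adjusted p = 0.0112). Without NMN replicate 1, the library at 0, it was -2.39 (edgeR adjusted p = 0.0599). Over the libraries left out one at a time the edgeR adjusted p ran from 0.0475 to 0.177 and the log2 fold change from -3.61 to -2.39. Acot6 at 1340 mg/kg/d had 15, 36, 12 and 11 reads with water and 12, 20, 10 and 11 with NMN, which overlapped. The 2680 mg/kg/d value thus rested on few reads, and a single library at 0 allows up to 0.158 CPM.

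Acot1 at this schedule was at 9.43, 7.20 and 8.89 CPM with water and 9.42, 47.5 and 17.8 CPM with NMN. NMN replicate 1 sat at the level of water while replicates 2 and 3 were above it, so the groups overlapped (8.50 ± 1.16 and 24.9 ± 19.99 CPM, SD, n = 3). The log2 fold change was 1.55 (SE 0.57, edgeR adjusted p = 0.158). It became 1.94 and passed (edgeR adjusted p = 0.0256) without NMN replicate 1, and fell to 0.67 without NMN replicate 2.
Acot2 showed the same order among the NMN livers and not among the water livers. Its levels were 1.49, 1.54 and 1.95 CPM with water and 1.28, 5.07 and 2.89 CPM with NMN (log2 fold change 0.89, SE 0.48, edgeR adjusted p = 0.279). It was 1.26 without NMN replicate 1 (edgeR adjusted p = 0.0789) and 0.32 without NMN replicate 2 (edgeR adjusted p = 0.749). Acot3 gave -0.25 (SE 0.60), Acot4 0.30 (SE 0.18), Acot8 -0.42 (SE 0.27) and Acot12 -0.20, none of them called by edgeR. Without NMN replicate 1 these 4 members gave -0.02, 0.37, -0.22 and -0.10, again with none called. Acot3 was at 0.72 without water replicate 2, where its sign turned, Acot8 at -0.78 and Acot4 at 0.15 without NMN replicate 2, and Acot12 at -0.35 without NMN replicate 3. In this comparison edgeR called 883 of 12477 genes (7.08%) and none of the 7 members. At an unadjusted p under 0.05 it listed 2 of 7 members (Acot1 and Acot6) and 24.6% of all genes, and DESeq2 called 1, Acot6, and 11.6% of all genes. Groups did not overlap for 1 of 7 members and for 29.8% of all genes.

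Marker levels moved with the 2680 mg/kg/d liver groups. Summed hepatocyte markers were 160820 to 173336 CPM with water and 121281 to 133496 CPM with NMN, with 2 of 8 called lower, Alb being the most abundant. Summed erythroid markers were 114 to 133 CPM with water and 42.6 to 83.8 CPM with NMN, with 1 of 5 called lower and none at 0, although 3 of the 5 had values above 0 and the median log2 fold change was 0.081. The water sums consisted mostly of 1 gene (86.7 to 108 CPM). It was Alas2, the haem synthesis enzyme of red cell precursors, which was the most abundant in all of these livers but NMN replicate 3, where the globin gene Hbb-bs was. NMN replicate 1 also had 31.8 CPM of summed proximal tubule markers, where the other livers of the schedule had 1.39 to 9.46 CPM and those at 1340 mg/kg/d had 39.2 to 56.0 CPM. Their part in the results was not tested. Tubule markers were present in that library without exception, none of 8 at 0, with Kap the most abundant at 21.3 CPM. Their sum equals 0.104% of the kidney level, at which kidney RNA would bring 0.0173 CPM of Acot6, and that library had 0 reads of Acot6. Mitochondrial genes took 9.24% of its counted reads, against 5.74% to 7.37% in the other livers of the schedule, and 5.06% of all its reads fell outside genes, against 3.27% to 4.21%. Leaving the mitochondrial genes out changed no member's call in this comparison.

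In kidney at 1340 mg/kg/d, Acot2 was the member with the smallest p. It stood at 36.7, 45.9, 45.5 and 43.6 CPM with water and 64.3, 67.5, 74.4 and 44.5 CPM with NMN. Replicates 1 to 3 of NMN lay above all water kidneys and replicate 4 among them. Means were 42.9 ± 4.29 and 62.7 ± 12.8 CPM (SD, n = 4), which is a log2 fold change of 0.54 (SE 0.14, 95% interval 0.26 to 0.83, edgeR adjusted p = 0.140). Without NMN replicate 4 it was 0.68 and passed (edgeR adjusted p = 0.0168), and DESeq2 called it with all libraries (0.54, adjusted p = 0.0281). Acot3 was at 19.3, 27.3, 27 and 19.3 CPM with water and 37.1, 40.2, 28.4 and 20.8 CPM with NMN (log2 fold change 0.44, SE 0.20, edgeR adjusted p = 0.536), and NMN replicate 4 again lay with the water kidneys. Acot1 gave 0.17 (SE 0.13), Acot4 0.09, Acot6 -0.22, Acot8 0.00 and Acot12 0.27. With a library left out, Acot1 ran from 0.07 (without NMN replicate 2) to 0.25, Acot4 from 0.06 (without NMN replicate 2) to 0.13, Acot6 from -0.39 (without NMN replicate 2) to -0.10 (without NMN replicate 3), and Acot12 from 0.20 to 0.40 (without NMN replicate 3, edgeR adjusted p = 0.0660), none of them called. EdgeR called none of 7 tested members and 18 of 14972 genes (0.12%). At an unadjusted p under 0.05 it listed 2 of 7 members (Acot2 and Acot3) and 8.94% of all genes, and DESeq2 called 1, Acot2, and 1.23% of all genes. No member had groups apart, against 5.12% of all genes.

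In kidney at 2680 mg/kg/d it was Acot3 that stood furthest from water. Its counts were 326, 374 and 363 with water and 883, 814 and 874 with NMN, in NMN libraries that were deeper (22922994 to 33872983 reads) than the water libraries (16358886 to 18983689 reads). Scaled, it was at 17.1, 22.5 and 21.8 CPM with water and 37.1, 35.7 and 26.1 CPM with NMN, and the groups did not overlap. Means were 20.5 ± 2.93 and 33.0 ± 5.97 CPM (SD, n = 3), which is a log2 fold change of 0.69 (SE 0.15, 95% interval 0.36 to 1.02, edgeR adjusted p = 0.0930). DESeq2 called it (0.68, adjusted p = 0.00434), as did edgeR without NMN replicate 3 (0.83, adjusted p = 0.0453). Acot4 was at 59.2, 70.1 and 74.1 CPM with water and 79.6, 81.3 and 76 CPM with NMN, also without overlap but by a smaller margin (log2 fold change 0.22, SE 0.09, edgeR adjusted p = 0.390). Acot1 was at 39, 27.3 and 32.8 CPM with water and 60.6, 42.5 and 32.8 CPM with NMN (0.45, SE 0.25, edgeR adjusted p = 0.579), and the groups overlapped. Acot2 gave 0.33 (SE 0.14), Acot6 -0.12, Acot8 0.08 and Acot12 0.21. Several of these values moved with 1 library. Acot1 was 0.18 without NMN replicate 1, Acot4 was 0.13 without water replicate 1, Acot2 was 0.20 and Acot6 -0.22 without water replicate 2, and Acot6 was 0.0091 without water replicate 3. Acot8 ran from -0.0058 to 0.16 and Acot12 from 0.14 to 0.30 with a library left out. EdgeR called none of 7 tested members and 61 of 15245 genes (0.4%). At an unadjusted p under 0.05 it listed 3 of 7 members (Acot2, Acot3 and Acot4) and 11.1% of all genes, and DESeq2 called 1, Acot3, and 1.52% of all genes. Groups did not overlap for 2 of 7 members, both higher, against 8.47% of all genes that did not overlap and were higher. Acot5 had 2 to 6 reads per kidney library at 1340 mg/kg/d and 0 to 8 at 2680 mg/kg/d, too few to be tested.
Summed proximal tubule markers were lower in every NMN kidney than in every water kidney on both schedules, at 22219 to 29292 against 29967 to 39367 CPM and at 21176 to 27105 against 29190 to 31523 CPM. None of the 8 markers was called, none was at 0, and Kap was the most abundant in each kidney library. Markers of other tubule segments moved the other way at 1340 mg/kg/d, with a sum of 5487 to 5854 CPM in NMN kidneys and 4326 to 4985 CPM in water kidneys. All 6 had values above 0, none was called or at 0, and Umod was the most abundant. At 2680 mg/kg/d their sums overlapped, at 3757 to 4264 against 3433 to 4021 CPM. The 4 genes listed as bile duct markers, of which Krt7 was the most abundant and none was at 0, summed to 191 to 227 CPM in NMN kidneys and 173 to 187 CPM in water kidneys at 2680 mg/kg/d, with none called. Adipocyte markers were uneven in kidneys at 1340 mg/kg/d. Their sum was 16.0 to 68.9 CPM with water, 78.5 CPM in NMN replicate 3 and at most 4.96 CPM in the other NMN kidneys. Of these kidneys, NMN replicate 3 also had the largest erythroid sum (297 CPM), the highest Acot2 (74.4 CPM) and the lowest Acot12 (134 CPM). NMN replicates 1 and 2, with low adipocyte sums, had 64.3 and 67.5 CPM of Acot2. Without replicate 3 the log2 fold change of Acot2 was 0.45. The part of these markers in the kidney values was not tested.

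Whether the difference between NMN and water differed between the schedules was tested as an interaction within each organ. No member passed. The largest value was that of Acot6 in liver, whose log2 fold change was lower at 2680 mg/kg/d than at 1340 mg/kg/d (difference -2.41, SE 0.92, edgeR adjusted p = 0.445). Acot12 in liver gave -0.59 (SE 0.27, edgeR adjusted p = 0.542). Without liver NMN replicate 1 at 2680 mg/kg/d these were -1.84 and -0.48, and without liver NMN replicate 4 at 1340 mg/kg/d -2.45 and -0.70, with none called. At an unadjusted p under 0.05 edgeR listed these 2 of 7 members in liver and 8.6% of all genes, and called 10 of 13412 genes (0.0746%). In kidney it listed none of 7 members at that p, where 4.62% of all genes were listed and 1 of 15989 (0.00625%) was called. DESeq2 called no member in either organ, and 0.86% and 0.0774% of all genes.

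The difference of the NMN effect between organs was tested likewise. At 1340 mg/kg/d Acot1 had the largest value, higher in liver by 1.67 (SE 0.48, unadjusted p = 0.00327, edgeR adjusted p = 0.555) and by 1.88 without liver NMN replicate 4 (edgeR adjusted p = 0.222), and edgeR called 0 of 15614 genes, with 904 at an unadjusted p under 0.05 (5.79%) and 26 called by DESeq2 (0.174%). At 2680 mg/kg/d Acot6 was the 1 member called of 7, with 2.65% of all 15811 genes called. Its NMN effect was lower in liver than in kidney (difference -2.86, SE 0.59, 95% interval -4.12 to -1.59, edgeR adjusted p = 0.0243). Without liver NMN replicate 1 the difference was -2.27 (edgeR adjusted p = 0.0215). In kidney itself Acot6 was at 16.2, 14.2 and 19.6 CPM with water and 16.8, 15.2 and 14 CPM with NMN, which overlapped. The call held in 5 of the 12 fits that left out 1 library and was lost in 7, with adjusted p between 0.0102 and 0.0646, and with a replicate block it was lost (adjusted p = 0.0549).

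The other genes of acyl-CoA metabolism were read as lists, with their members counted in each comparison. Some genes were counted in several lists, among them Ehhadh, Pex11a and Vnn1, so counts of different lists are not separate evidence. In liver at 1340 mg/kg/d none passed the edgeR threshold. Of 19 tested PPAR-alpha target genes, 18 had values above 0 and 8 had groups that did not overlap and were higher (1.78% of all genes), with a median log2 fold change of 0.82 against -0.003 over all genes. The list holds none of the 8 thioesterases. The smallest p were those of Cyp4a31, a fatty acid omega-hydroxylase (2.37, edgeR adjusted p = 0.0659), Vnn1, a pantetheinase that frees pantothenate for CoA synthesis (1.52, edgeR adjusted p = 0.0659), and Pex11a, which drives peroxisome division (0.82, edgeR adjusted p = 0.0659). Pex11a stood at 65.0, 63.6, 56.7 and 67.4 CPM with water and 101, 123, 131 and 92.8 CPM with NMN. The groups of Cyp4a14 were also apart. It stood at 6.96, 83.2, 150 and 118 CPM with water and 929, 2271, 2438 and 1209 CPM with NMN. Among 27 peroxisomal genes, 6 had groups apart and higher, led after Pex11a by Ehhadh, the bifunctional beta-oxidation enzyme (0.95, edgeR adjusted p = 0.143), and the carnitine acetyltransferase Crat (0.83, edgeR adjusted p = 0.253). Of 19 mitochondrial genes, 17 were above 0 with a median of 0.22, and Etfdh, which feeds electrons from fatty acid oxidation to ubiquinone, gave 0.36 (edgeR adjusted p = 0.546), Acadl 0.33 and Eci1 0.35. The 8 other thioesterases tested went both ways, 4 above 0 and 4 below (median -0.022). Acot11 had groups apart, at 4.78 ± 1.19 CPM with water and 2.13 ± 0.304 CPM with NMN (SD, n = 4; -1.16, edgeR adjusted p = 0.290). Ppt1 and Ppt2, palmitoyl-protein thioesterases, gave -0.17 and -0.12. All 3 related acyltransferases were above 0, Acnat2 at 1.04 (edgeR adjusted p = 0.290), Acnat1 at 0.43 and the bile acid conjugating Baat at 0.05. Medians over 18 acyl-CoA synthetases and 14 genes of CoA synthesis and breakdown were 0.091 and -0.024. Their smallest p were those of Slc27a1 (0.66), Acsl4 (-0.40) and Acsm5 (0.32), and, after Vnn1, of the CoA diphosphatases Nudt7 (-0.64) and Nudt8 (0.63). Of 12 regulators Hnf4a, a hepatocyte transcription factor, gave 0.68 (edgeR adjusted p = 0.117), Foxo1 0.51 and Rxra, the partner of PPAR-alpha, 0.34.
Without NMN replicate 4, 4 of 19 PPAR-alpha targets were called higher, where 14 of 12704 genes were. They were Cyp4a31 (2.56, edgeR adjusted p = 0.0240), Vnn1 (1.66, edgeR adjusted p = 0.0240), Pex11a (0.90, edgeR adjusted p = 0.0253) and Ehhadh (1.08, edgeR adjusted p = 0.0419), and the list's median was 1.02. None of the 7 thioesterases was called in that fit.

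In liver at 2680 mg/kg/d, 3 of 19 PPAR-alpha targets rose and none fell by the edgeR test, where 3.05% of all genes rose and 4.03% fell. They were Cyp4a31 (4.03, SE 0.43, mean 6.55 CPM with water and 107 CPM with NMN, edgeR adjusted p = 0.00363), Cyp4a14 (3.21, means 261 and 2413 CPM, edgeR adjusted p = 0.0421) and Ehhadh (1.25, means 220.2 and 523 CPM, edgeR adjusted p = 0.0295). The list's median was 0.53. Among the other thioesterases 1 of 8 rose and 2 fell. Them4, a mitochondrial thioesterase, rose by 0.68 (edgeR adjusted p = 0.0448), and the lysosomal Ppt1 fell by 0.67 (edgeR adjusted p = 0.0433). Acot11 had 82, 101 and 66 reads with water and 0, 13 and 9 with NMN, with means of 4.44 ± 0.669 and 0.365 ± 0.325 CPM (SD, n = 3), and fell by 3.58 on the log2 scale (SE 0.68, edgeR adjusted p = 0.0152). The library with no reads of Acot11 was NMN replicate 1, which also had none of Acot6. The peroxisomal list was split, 2 of 27 rising and 3 falling. Crat rose by 1.57 (edgeR adjusted p = 0.00978) together with Ehhadh, while those that fell included Pecr, an enoyl-CoA reductase, by 0.57 and Slc25a17, a carrier of CoA and other nucleotides, by 0.57. Of 14 CoA genes 2 fell, the pantetheinase Vnn3 by 0.95 (edgeR adjusted p = 0.00953) and the peroxisomal CoA diphosphatase Nudt7 by 1.34 (edgeR adjusted p = 0.0169). Of 17 synthetases Acsl3 rose by 0.83, and Acsf3, which activates malonate, and Acsl5 fell by 0.75 and 0.65. No mitochondrial gene of 19 was called, Cpt1a, Acads and Slc25a20 giving 0.51, -0.39 and 0.39. None of 3 acyltransferases was called, Baat, Acnat1 and Acnat2 giving -0.15, -0.06 and -0.06, and 1 of 12 regulators, Klf15, rose by 0.67 (edgeR adjusted p = 0.0346).
Without NMN replicate 1, 6 of 19 PPAR-alpha targets were called higher, namely Cyp4a10, Cyp4a14, Cyp4a31, Ehhadh, Pex11a and Vnn1, where 273 of 12812 genes were. Acot11 gave -3.01 (edgeR adjusted p = 0.00213) and Ppt1 -0.82 (edgeR adjusted p = 0.0260) in that fit. Them4 (adjusted p = 0.0628) and Nudt7 (adjusted p = 0.0625) were among those that missed the edgeR threshold. The peroxisomal list then had 5 of 27 called higher and 2 lower.

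**Figure D4:**
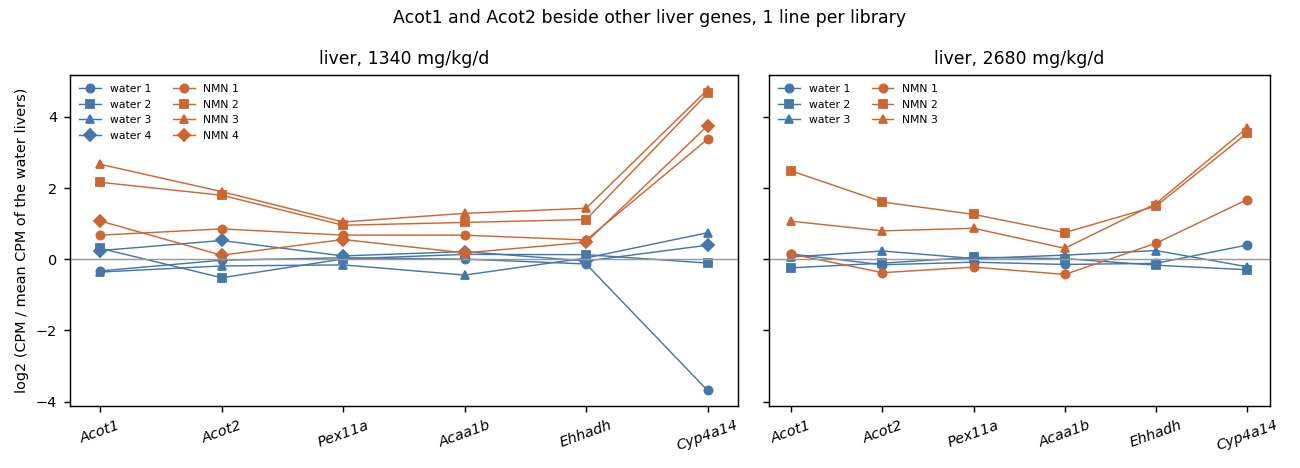
Log2 level of Acot1, Acot2, Pex11a, Acaa1b, Ehhadh and Cyp4a14 in each liver library over the mean of the water livers of its schedule, with 1 line per library. At 2680 mg/kg/d the line of NMN replicate 1 stays near water for Acot1 (9.42 CPM) and Pex11a (39.9 CPM) and is above it for Cyp4a14 (834 CPM).

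The genes of the list differed in whether NMN replicate 1 of the 2680 mg/kg/d livers stood with water or with NMN. Pex11a was at 43.9, 48.3 and 47.2 CPM with water and 39.9, 111 and 85.0 CPM with NMN, so replicate 1 stood below the water livers, as for Acot2. Cyp4a14 was at 345, 213 and 226 CPM with water and 834, 3033 and 3372 CPM with NMN, with replicate 1 above them. Ehhadh was at 203, 196 and 261 CPM and 300, 618 and 650 CPM.

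In kidney edgeR called no gene of any list on either schedule. At 1340 mg/kg/d the median of the PPAR-alpha targets was 0.083, and the smallest p were those of Plin2, a lipid droplet protein (-0.25), Cyp4a31 (0.26) and Vnn1 (0.33). Peroxisomal genes had a median of 0.072, with Pecr at -0.34, Acaa1b at 0.25 and Hsd17b4 at 0.19, and mitochondrial genes one of 0.062, with Cpt1a at 0.24, Hadh at -0.19 and Cpt1b at 0.46. Among regulators the bile acid receptor Nr1h4 (0.63, edgeR adjusted p = 0.151) and the clock repressor Nr1d1 (1.03, edgeR adjusted p = 0.319) had groups apart and higher, and Plin2 and the synthetase Acsf3 had groups apart and lower, where 5.12% of all genes had groups apart in either direction. Klf15 gave 0.37. Acnat2 gave 0.58 (edgeR adjusted p = 0.320), Acnat1 0.24 and Baat -0.12. Acot9, Acot13 and Ppt2, thioesterases outside the cluster, gave 0.17, -0.15 and -0.12. Of the synthetases Acsm2 gave -0.30, Acsf3 -0.20 and Acsl4 0.25, and of the CoA genes, after Vnn1, Ppcs gave -0.26 and Pank1 0.16.
At 2680 mg/kg/d, 23 of 27 peroxisomal genes and 16 of 18 PPAR-alpha targets lay above 0, with medians of 0.099 and 0.32 against 0.004 over all genes. Hsd17b4, the other bifunctional enzyme of peroxisomal beta-oxidation, gave 0.40 (edgeR adjusted p = 0.0544), Acaa1b, the peroxisomal thiolase, 0.59 (edgeR adjusted p = 0.0736), and Slc27a1, a fatty acid transport protein with synthetase activity, 0.43 (edgeR adjusted p = 0.0550). Ehhadh gave 0.41, Vnn1 0.50 and Plin2 0.32. Mitochondrial genes had a median of 0.113, with Ucp2 at 0.33, Cpt1a at 0.32 and Eci1 at 0.23. Regulators had 11 of 12 above 0, with Klf15 at 0.48, Ppara at 0.54 (edgeR adjusted p = 0.231) and Foxo1 at 0.26. The thioesterases Ppt1, Acot7 and Acot9 gave -0.22, 0.22 and -0.15. Acnat2, Baat and Acnat1 gave 0.27, -0.43 and 0.07, Acsm1 and Acsf3 0.53 and -0.16, and Vnn3 and Nudt19 0.81 and -0.34.

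The genes whose level followed each thioesterase most closely were found over the 14 libraries of an organ after removing the mean of each schedule. The libraries share depth and treatment, and the values are descriptions. In liver, among 11982 genes, Acot1 went with Map3k5 (Pearson r 0.946), Tns1 (0.926) and Pex11a (0.922), and Acot2 with Ces1f (0.936), Acaa1b (0.931) and Pex11a (0.906). Acot8 went with Acaa2 (0.939), Vasn (0.924) and Acads (0.918), of which Acaa2 and Acads are mitochondrial beta-oxidation enzymes. Acot6 went with Crlf2 (0.941), Acot4 with Hgsnat (0.909), Acot12 with Serpinb1a (0.916) and Acot3 with 2210408F21Rik (0.869). In kidney, among 14547 genes, Acot1 went with Ehhadh (0.914), Acot3 with Arf6 (0.902), Acot6 with Dpy19l3 (0.895), Acot12 with Mob1a (0.884), Acot4 with 2810030D12Rik (0.873) and Acot8 with Tomm6 (0.825). Among the members themselves Acot1 and Acot2 were closest in liver (0.900), followed by Acot3 and Acot4 (0.789). In kidney the closest pairs were Acot1 and Acot3 (0.732), Acot2 and Acot3 (0.730) and Acot3 and Acot4 (0.706). Acot1 and Acot2 are the closest pair in sequence, and the part of shared reads in these values was not tested.

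The likeness of Acot1 and Acot2 in sequence did not extend upstream. Over the 250 bases before their start sites, Acot1 and Acot2 were identical at 45.9% of aligned positions with no shared run above 9 bases, within the range of 39.7% to 50.9% over all pairs of members. Promoters were found in RefSeq (GRCm38.p6) for 7 of the 8 genes, all but Acot6. They are shown for Acot1 and Acot2, which varied together in liver, and for Acot4, which lies next to them and whose groups overlapped in liver. Capitals mark TGACCT, the letters AGGTCA on the opposite strand, the recognition element of nuclear receptors. All lie on the plus strand, Acot1 at chr12:84009252-84009501, Acot2 at chr12:83987611-83987860 and Acot4 at chr12:84038129-84038378.
Acot1: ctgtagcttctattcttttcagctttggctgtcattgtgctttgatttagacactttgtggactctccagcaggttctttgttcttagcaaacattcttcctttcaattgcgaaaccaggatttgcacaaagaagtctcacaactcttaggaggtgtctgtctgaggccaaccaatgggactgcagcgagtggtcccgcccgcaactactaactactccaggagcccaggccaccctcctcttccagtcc
Acot2: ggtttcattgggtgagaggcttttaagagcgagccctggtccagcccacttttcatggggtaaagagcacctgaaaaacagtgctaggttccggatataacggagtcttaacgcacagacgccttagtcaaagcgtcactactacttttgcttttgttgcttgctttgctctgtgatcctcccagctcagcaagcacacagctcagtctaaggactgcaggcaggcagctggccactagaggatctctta
Acot4: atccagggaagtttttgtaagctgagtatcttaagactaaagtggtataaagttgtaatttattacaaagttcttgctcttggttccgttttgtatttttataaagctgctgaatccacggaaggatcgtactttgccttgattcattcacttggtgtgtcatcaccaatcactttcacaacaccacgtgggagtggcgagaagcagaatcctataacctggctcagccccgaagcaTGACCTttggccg

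AGGTCA was searched on both strands from 250 bases before to 50 after the start. It occurred in the windows of Acot3, Acot4, Acot5 and Acot12 and not in those of Acot1, Acot2 and Acot8, and 16.3% of all 32851 RefSeq promoters hold it. The direct repeat of this element with a single base between the copies, the form bound by PPAR-alpha with its partner Rxra, was searched in a form that leaves some bases open. It was in none of the members' windows and in 0.381% of all. A match here is a run of letters and no more, and its absence concerns this window alone.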

How the data were processed

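PolyA RNA of 28 liver and kidney libraries was sequenced. The authors used STAR for alignment and HTSeq for counting per gene, without strand and excluding reads with more than 1 position, and deposited raw counts. Rows without a gene (18.6% to 29.3% of reads) were left out. The article names the genome build mm19, a name not used for the annotations here. Of 54446 gene IDs, 53229 matched GENCODE M21 with version and 1180 without version, and 37 did not match. Groups came from the labels. Each comparison was fitted on its own libraries, all genes included, with edgeR 4.0.16 in R 4.3.3 (filterByExpr, TMM, robust quasi-likelihood test, Benjamini-Hochberg adjustment, threshold 0.05). DESeq2 1.42.0, other scalings and filters, a replicate block, one fit per organ, summed cluster reads and leaving out each library were alternatives. Library size only, mitochondrial genes left out, and the lists without 1 liver library were alternatives chosen after seeing the data. The code was tested on simulated data. Counts set the precision, and intervals on a count of 0 cover counting error only (3 reads). P-values set the difference between groups against the spread between libraries, which was estimated with information shared across genes. Replicates differed by more than sampling noise (chi-square per degree of freedom 6.67 to 96.2).

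The members and gene lists were chosen with earlier results of these data known. Named were all members, per list and comparison up to 4 called genes in each direction (else the 3 with smallest p), and the 3 genes with highest r to each member. Genes outside this rule were named after their values were seen, where a library was left out and for Cyp4a14 in liver at 1340 mg/kg/d. Coding identity came from pairwise alignment. Protein sequences were not used here. Results for some genes that the rule named are not reported here.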

Additional observations from a re-analysis of the deposited data

Results flagged for a closer look

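Acot8 in liver NMN replicate 4 at 1340 mg/kg/d was at 14.03 CPM, below 15.8, 16.0 and 15.9 CPM in the other NMN livers, and its gap to the nearest was 0.875 of the group's range. This library also had the largest share of unassigned reads, 29.3%. Acot12 in kidney NMN replicate 3 at 1340 mg/kg/d was at 134 CPM, below 204, 205 and 216 CPM in the other NMN kidneys, with a gap of 0.854 of the range. Without it the NMN effect on Acot12 in kidney was 0.40 in place of 0.27 on the log2 scale (edgeR adjusted p = 0.0660). Of 30 groups of 4 libraries examined, 2 had such a library, and chance gives about 1 in 20. The NMN effect on Acot6 at 2680 mg/kg/d differed between organs by -2.86 on the log2 scale (liver less kidney, edgeR adjusted p = 0.0243), from -2.95 in liver and -0.12 in kidney. That call was lost in 7 of the 12 fits that left out 1 library and with a replicate block (edgeR adjusted p = 0.0549). Kidney NMN replicate 3 at 1340 mg/kg/d also had the largest adipocyte and erythroid marker sums of the kidneys of its schedule. The parts of depth, of unassigned reads and of these markers in these values were not tested.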

How the results depend on the processing

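Over all alternatives the members' values kept direction and side of the threshold in 1228 instances, reversed in 47, became called in 33 and lost a call in 11. Low read numbers limit Acot6 and Acot2 in liver and Acot5 throughout, and the causes of the changes were not tested. The number of genes called for NMN against water in liver at 1340 mg/kg/d was 2, and 74 with DESeq2 (45 higher), 44 without a filter, 16 with a replicate block, 6 with all 14 libraries in one fit, 854 at an unadjusted p, and 0 to 18 with a library left out. In liver at 2680 mg/kg/d it was 883, and 1448 with DESeq2, 1785 without a filter, 3072 at an unadjusted p, 135 at an adjusted p under 0.01 with a fold over 2 or under 0.5, and 211 to 1308 with a library left out. In kidney at 1340 mg/kg/d it was 18, and 159, 269, 5 without the robust option, 75 with a replicate block, 1338 at an unadjusted p, and 5 to 67 with a library left out. In kidney at 2680 mg/kg/d it was 61 (18 higher), and 236 (98 higher) with DESeq2, 514 (286 higher) without a filter, 92 with a replicate block, 1688 at an unadjusted p, 35 in one fit, and 3 to 191 with a library left out. The organ comparisons gave 9075 to 10275 and 9548 to 10945 with a library left out. The schedule interaction in liver gave 10, and 99 with DESeq2, 71 without a filter, and 7 to 25 with a library left out. In kidney it gave 1, and 10 with DESeq2, 106 without a filter, 0 with upper quartile scaling, with at least 10 counts in every library or without the robust option, and 0 to 1 with a library left out. The organ interaction at 1340 mg/kg/d gave 0, and 26 with DESeq2, 9 without a filter, 5 with a replicate block, and 0 to 9 with a library left out. At 2680 mg/kg/d it gave 419, and 1232 with DESeq2, 1307 without a filter, 247 with a replicate block, and 118 to 1347 with a library left out.

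Libraries with the same replicate number had correlations of -0.099 to 0.155 between NMN and water, which are different mice. Between liver and kidney of water mice the correlations were 0.060 to 0.220, all positive. Pairs with different numbers were not computed as a reference. Whether same-numbered liver and kidney libraries came from the same mouse therefore cannot be decided from these values. The replicate block called Acot3 in the organ comparison at 2680 mg/kg/d (-1.38, edgeR adjusted p = 0.00554) and lost Acot6 in the organ interaction at 2680 mg/kg/d (-2.86, edgeR adjusted p = 0.0549). It was not fitted for the schedule interactions. Without a filter edgeR called Acot2 in kidney at 1340 mg/kg/d (0.55), Acot3 in kidney at 2680 mg/kg/d (0.71), Acot6 in liver at 2680 mg/kg/d (-2.95), and Acot1 (1.08) and Acot3 (-0.97) in the organ interaction at 2680 mg/kg/d, and lost Acot3 in the organ comparison at 1340 mg/kg/d (adjusted p = 0.0843). Acot6 in liver at 2680 mg/kg/d was also called with upper quartile scaling (-3.00, adjusted p = 0.0449) and in one fit of 14 libraries (-2.94, adjusted p = 0.0216).

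Reversals outside left-out libraries were of Acot8 in kidney at 1340 mg/kg/d (0.0052 without a filter), of Acot8 between organs at 1340 mg/kg/d (-0.094 with upper quartile scaling, -0.075 with at least 10 counts, -0.89 with library size only) and at 2680 mg/kg/d (-0.75 with library size only), and of Acot4 in the organ interaction at 1340 mg/kg/d (0.021 with upper quartile scaling, 0.024 with a replicate block). With a library left out, values that changed sign ran from -0.13 to 0.22 for Acot4 in liver at 1340 mg/kg/d, -0.82 to 0.72 for Acot3 in liver at 2680 mg/kg/d, -0.049 to 0.063 for Acot8 in kidney at 1340 mg/kg/d, and -0.22 to 0.0091 for Acot6 and -0.0058 to 0.16 for Acot8 in kidney at 2680 mg/kg/d. Between organs they ran from -0.15 to 0.19 for Acot4 and -0.19 to 0.026 for Acot12 at 1340 mg/kg/d, and -0.18 to 0.069 for Acot12 at 2680 mg/kg/d. In the schedule interaction they ran from -1.17 to 0.12 for Acot1 and -1.52 to 0.017 for Acot3 in liver, and in kidney from -0.027 to 0.26 for Acot6, -0.0064 to 0.16 for Acot8 and -0.20 to 0.030 for Acot12. In the organ interaction they ran from -0.16 to 0.54 for Acot3, -0.23 to 0.12 for Acot4, -0.53 to 0.19 for Acot6, -0.0065 to 0.17 for Acot8 and -0.012 to 0.25 for Acot12 at 1340 mg/kg/d, and from -0.051 to 0.94 for Acot2, -1.56 to 0.035 for Acot3 and -0.11 to 0.16 for Acot4 at 2680 mg/kg/d. Acot8 in the last comparison was called without liver NMN replicate 2 (-0.90, edgeR adjusted p = 0.0363).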
